A study of Homo sapiens with 8 samples.

Results

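Small Cajal body RNAs (scaRNAs) and spliceosomal small nuclear RNAs (snRNAs) were followed in human embryonic stem cells in which EXOSC3, a core subunit of the RNA exosome, was targeted by an inducible hairpin. The members are the genes whose symbol, taken from the RefSeq accession of each entry, begins with SCARNA, with RNU and a digit, or with RNVU. There were 34 of them among 25558 gene symbols, 24 scaRNAs and 10 snRNAs, each with 1 transcript entry. The mean over all libraries reached 1 FPKM (fragments per kilobase of transcript, scaled to library size) in 30 members, 24 scaRNAs and 6 snRNAs. The other 4, RNU5D-1, RNU5E-1, RNU5F-1 and RNU6-2, were listed at 0 in every library. The common U1, U2, U4 and U7 genes, and the major U5 and U6 genes, were not analysed here.

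The cells were the H1 line, an established human embryonic stem cell line, at passages 40 to 60, grown without feeder cells. In one line, shEXOSC3, a hairpin against EXOSC3 was induced by doxycycline; in the other, shNS, the induced hairpin was non-silencing. Each line was sampled with doxycycline and without it on days 5 and 7. The 8 groups are therefore shEXOSC3 with doxycycline, shEXOSC3 without it, shNS with doxycycline and shNS without it, each on both days, with 1 library per group. Every group carries a hairpin construct, and the shNS cells given doxycycline show what the drug and hairpin induction do without a hairpin against EXOSC3. No labels say whether a line is 1 clone.

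Spliceosomal snRNAs form the core of the particles that remove introns from pre-mRNA. U11, U12, U4atac and U6atac belong to the minor spliceosome, which removes a rare class of introns, while the RNVU1 genes encode variants of U1, the RNA that recognises 5′ splice sites. The scaRNAs stay in Cajal bodies, nuclear compartments where snRNPs mature, and guide chemical modification of the snRNAs: those with C and D boxes guide 2′-O-methylation, those with H and ACA boxes guide pseudouridylation, and a few carry both. The RNA exosome is a 3′ to 5′ exonuclease complex, and in many organisms it trims or degrades small nuclear and nucleolar RNAs. In total RNA of a whole culture, fewer cells with an RNA and less of that RNA per cell cannot be told apart.

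EXOSC3 itself was at 7.54 FPKM on day 5 and 9.13 FPKM on day 7 in shEXOSC3 cells with doxycycline, against 24.5 and 25.2 FPKM without it. In shNS cells it was at 27.8 and 27.4 FPKM with doxycycline, against 26.9 and 27.6 FPKM without it. The level with doxycycline was thus 0.307 and 0.362 times that without it in shEXOSC3, and 1.03 and 0.995 times in shNS. Of 9 stem cell markers, 8 were above 1 FPKM in every library and no entry of TDGF1 was matched. All 12 markers of mesendoderm, neuroectoderm, trophectoderm and blood were below 1 FPKM in every library. Of 5 stromal markers, COL1A1 and COL1A2 were above 1 FPKM in every library, while DCN and LUM were listed at 0 in all of them. The scale of the FPKM values implied totals of 14600651 to 37001990 fragments per library.

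Each group has 1 library, so a single comparison carries no test across samples. A gene was called by size alone, at an absolute log2((FPKM + 1)/(FPKM + 1)) of at least 1, which is a difference of 2-fold, over the 12694 genes with a mean of at least 1 FPKM. The ratio is doxycycline over no doxycycline within a table, and the adjusted log2 difference is the shEXOSC3 ratio minus the shNS ratio of the same day. Adding 1 FPKM understates differences of genes near 1 FPKM. Ratios of short members with few fragments can still be large. SCARNA20 in shEXOSC3 on day 5, at 16.0 against 0 FPKM, had a log2 ratio of 4.09. With 10 FPKM added instead, that ratio was 1.38. As an alternative added after the data were seen, limma was fitted to the 4 ratios of every gene, with the 2 days of a line taken as its replicates, and its p-values measure the spread between days. For short RNAs the number of fragments behind a value was estimated from the spacing of low FPKM values, and it is given beside the FPKM below. Intervals are exact 95% intervals of an FPKM ratio from those fragments. They cover counting error only, since these reads carry no molecular identifiers and copies made by PCR count as separate fragments.

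The RNAs that carried the largest well-counted differences were a minor spliceosome snRNA and U1 variants, and the sequences on file are shown here with the remaining minor snRNAs and with RNU1-1, a common U1 gene, for comparison. Sequences are those of the GENCODE v29 transcripts, 5′ to 3′, written as DNA. Capitals mark every AATTTNT on the RNA strand, which lies in the binding site of the Sm protein ring, and ACTTACC, the part of U1 that pairs with 5′ splice sites; the other strand was not searched.
RNU4ATAC: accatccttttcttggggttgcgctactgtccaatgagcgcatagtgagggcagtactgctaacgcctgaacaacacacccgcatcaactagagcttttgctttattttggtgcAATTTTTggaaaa
RNU11: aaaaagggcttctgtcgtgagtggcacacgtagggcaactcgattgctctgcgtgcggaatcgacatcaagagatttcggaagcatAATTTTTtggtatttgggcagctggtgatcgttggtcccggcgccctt
RNU12: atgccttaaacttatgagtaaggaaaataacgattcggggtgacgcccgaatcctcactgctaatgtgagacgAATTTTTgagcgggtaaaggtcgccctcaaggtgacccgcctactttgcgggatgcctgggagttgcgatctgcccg
RNU6ATAC: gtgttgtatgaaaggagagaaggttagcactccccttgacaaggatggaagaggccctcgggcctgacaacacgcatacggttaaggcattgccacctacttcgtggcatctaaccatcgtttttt
RNVU1-19: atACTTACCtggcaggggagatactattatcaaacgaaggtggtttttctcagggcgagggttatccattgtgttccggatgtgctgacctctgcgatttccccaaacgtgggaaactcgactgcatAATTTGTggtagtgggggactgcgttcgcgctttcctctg
RNU1-1: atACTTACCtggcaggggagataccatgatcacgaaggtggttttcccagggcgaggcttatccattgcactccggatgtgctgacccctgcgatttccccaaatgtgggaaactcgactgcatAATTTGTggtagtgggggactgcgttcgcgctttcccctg
RNU4ATAC, RNU11, RNU12, RNVU1-19 and RNU1-1 each held AATTTNT once, in RNU4ATAC near the 3′ end at position 115 of 127. RNU6ATAC held none, and U6-type RNAs are known to bind a ring of LSm proteins at a 3′ run of U residues in place of the Sm ring. Of all 13915 annotated transcripts under 300 nt, 9.11% held AATTTNT and 0.776% held ACTTACC. RNVU1-19 and RNU1-1 both had ACTTACC from position 3, and a global alignment gave 154 identical positions, 10 mismatches and 3 gap positions, an identity of 92.2%. Reads from such near-identical copies can be divided among genes by the aligner, so the values of RNVU1-19 and RNVU1-8 are uncertain as to which U1 copy they come from. No sequence is shown for RNVU1-8.

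On day 7, 3 of the 6 measured snRNAs were at least 2-fold higher with doxycycline in shEXOSC3 cells, and none of those 3 was higher by that much in shNS cells. In the same libraries 3.84% of all genes and 24.4% of the other short genes were at least 2-fold higher. RNU4ATAC, the U4-like partner of U6atac in the minor tri-snRNP, was at 1405 FPKM with doxycycline, against 385 FPKM without it, in shEXOSC3 cells on day 7. In shNS cells of that day it was at 294 FPKM with doxycycline and 248 FPKM without it. The shEXOSC3 library with doxycycline had the highest value on day 7, but tables made separately can differ in scale, so only ratios within a table are compared. The ratio rested on 192 against 57 fragments in shEXOSC3, 3.65 with an interval of 2.71 to 5.00, and on 41 against 26 fragments in shNS, 1.18 with an interval of 0.706 to 2.01. The adjusted log2 difference on day 7 was 1.63. On day 5, RNU4ATAC was at 7.999 FPKM with doxycycline and 8.05 FPKM without it in shEXOSC3, and at 7.56 and 6.01 FPKM in shNS. Those 4 values stand for 1, 1, 2 and 1 fragments, so a difference on day 5 was not detectable at this depth.

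RNVU1-19, a U1 variant, was at 2200 FPKM with doxycycline, against 573 FPKM without it, in shEXOSC3 cells on day 7. In shNS cells it was at 364 FPKM with doxycycline and 498 FPKM without it. Here too the shEXOSC3 library with doxycycline had the highest value of the 4 day-7 libraries, with the same limit on comparing tables. The ratio was 3.84, with an interval of 3.28 to 4.51 from 715 against 202 fragments, in shEXOSC3, and 0.732, with an interval of 0.565 to 0.948 from 121 against 124 fragments, in shNS. The adjusted log2 difference on day 7 was 2.39. On day 5 it was 0.24, from 23.5 FPKM with doxycycline and 13.5 FPKM without it in shEXOSC3, and 50.7 and 35.3 FPKM in shNS, or 7, 4, 32 and 14 fragments.

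RNVU1-8, another U1 variant, was at 701 FPKM with doxycycline, against 246 FPKM without it, in shEXOSC3 cells on day 7. In shNS cells of day 7 the order was turned round, with 158 FPKM with doxycycline and 399 FPKM without it. The ratio was 2.85, with an interval of 2.03 to 4.06 from 126 against 48 fragments, in shEXOSC3, and 0.395, with an interval of 0.243 to 0.631 from 29 against 55 fragments, in shNS. The adjusted log2 difference of 2.84 on day 7 therefore joins a higher level in one line with a lower level in the other. On day 5 it was at 79.1 FPKM with doxycycline and 61.2 FPKM without it in shEXOSC3, and at 94.6 and 137 FPKM in shNS. The adjusted difference was then 0.89 on the log2 scale, from 10 to 33 fragments per library. In the authors' deposited tables, RNVU1-19 in shEXOSC3 on day 7 had the smallest p of all members, 5e-05 with q = 0.105. The authors' deposited table gave RNVU1-8 p = 0.0105 in shEXOSC3 and p = 0.0158 in shNS on day 7, and RNU4ATAC p = 0.137 in shEXOSC3 on day 7. The smallest q of any member in the authors' deposited tables was that 0.105; their test set 1 library against 1 library.

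RNU11 and RNU12 stayed within 2-fold in every table. RNU11, the U11 RNA that recognises the 5′ splice site of minor introns, was at 6135 FPKM with doxycycline and 4980 FPKM without it in shEXOSC3 on day 7, and at 5021 and 6022 FPKM in shNS. It had 716 to 952 fragments in these libraries, and the ratios were 1.23, with an interval of 1.12 to 1.35, in shEXOSC3 and 0.834, with an interval of 0.753 to 0.924, in shNS. Both intervals leave out 1 but lie well inside 2-fold, and the adjusted log2 difference was 0.56. On day 5, RNU11 was lower with doxycycline in both lines, at 204 against 340 FPKM in shEXOSC3 and 329 against 459 FPKM in shNS, which made -0.25 on the adjusted log2 scale.

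RNU12, the U12 RNA that pairs with the branch site of minor introns, was at 702 FPKM with doxycycline and 694 FPKM without it in shEXOSC3 on day 7, and at 619 and 759 FPKM in shNS. On day 5 it was at 333 against 483 FPKM in shEXOSC3 and at 670 against 926 FPKM in shNS, so it too was lower with doxycycline in both lines. Its adjusted log2 difference was -0.07 on day 5 and 0.31 on day 7. RNU6ATAC, which replaces U6 in the catalytic core of the minor spliceosome, was at 82.1 against 73.5 FPKM in shEXOSC3 and 181 against 212 FPKM in shNS on day 5, and at 83.5 against 61.6 FPKM and 65.4 against 65.4 FPKM on day 7. It had 6 to 10 fragments in each day-7 library, and its day-7 interval in shEXOSC3, 0.482 to 3.95, holds both no difference and a 3.65-fold one. The data therefore do not tell whether U6atac moved as U4atac did.

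**Figure D1:**
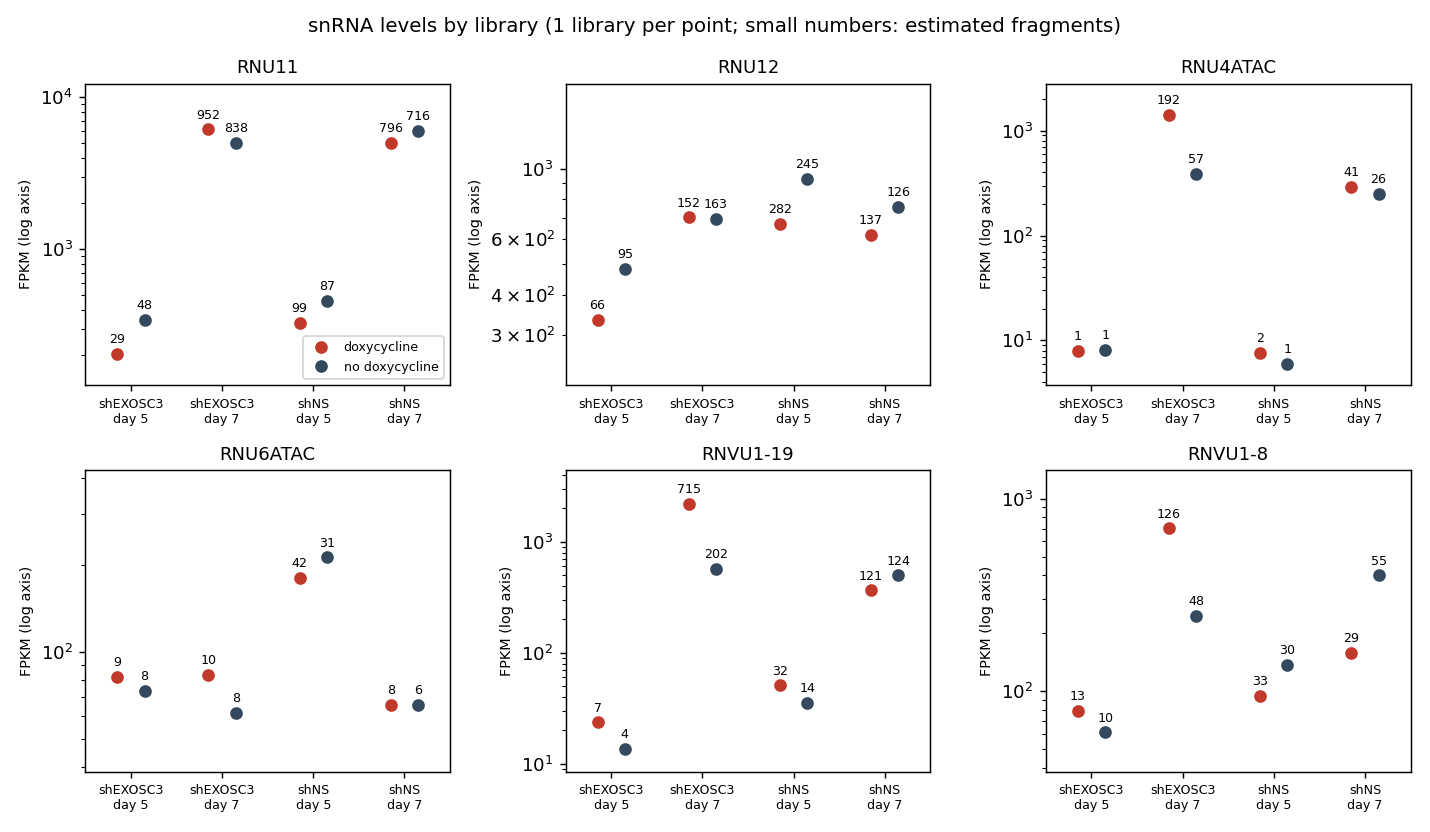
FPKM (log axis) of the 6 measured snRNAs in the 8 libraries, 1 point per library, with doxycycline in red left of no doxycycline in dark blue, and the estimated fragments above each point. On day 7 in shEXOSC3, RNU4ATAC, RNVU1-19 and RNVU1-8 were at 1405, 2200 and 701 FPKM with doxycycline, against 385, 573 and 246 FPKM without it. RNU12 was at 702 against 694 FPKM there.

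SCARNA2 and SCARNA7, the most abundant scaRNAs with C and D boxes, stayed within 2-fold in every table. SCARNA2 had a locus of its own in the deposited tables, chr1:109642815-109643234 (hg19). It was at 1738 against 1350 FPKM on day 5 and 328 against 361 FPKM on day 7 in shEXOSC3 with and without doxycycline. In shNS it was at 2428 against 2266 FPKM and at 303 against 417 FPKM. SCARNA7 was at 1038 against 1570 FPKM on day 5 and 301 against 352 FPKM on day 7 in shEXOSC3, and at 1318 against 1278 FPKM and 351 against 417 FPKM in shNS. The adjusted log2 differences were 0.26 and 0.32 for SCARNA2 and -0.64 and 0.03 for SCARNA7 on days 5 and 7, with 2361 or more fragments in each day-5 library. The SCARNA7 ratio on day 5 was 0.661 in shEXOSC3, with an interval of 0.628 to 0.697 from 2361 against 3547 fragments, against 1.03 in shNS.

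The 3 most abundant scaRNAs that carry both box types also stayed within 2-fold. SCARNA10 was at 1988 against 2342 FPKM on day 5 and 532 against 525 FPKM on day 7 in shEXOSC3, and at 2453 against 2227 FPKM and 509 against 491 FPKM in shNS. SCARNA12 was at 1444 against 1256 FPKM and 904 against 869 FPKM in shEXOSC3, and at 1603 against 1485 FPKM and 736 against 860 FPKM in shNS. SCARNA5 was at 767 against 627 FPKM and 166 against 188 FPKM in shEXOSC3, and at 1027 against 960 FPKM and 195 against 200 FPKM in shNS. Their adjusted log2 differences lay between -0.38 and 0.28 on both days, with 244 or more fragments in every library.

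Of the H/ACA scaRNAs with the highest means, SCARNA16 was at 244 against 298 FPKM on day 5 and 458 against 440 FPKM on day 7 in shEXOSC3, and at 647 against 577 FPKM and 297 against 412 FPKM in shNS. SCARNA13 was at 553 against 460 FPKM and 159 against 164 FPKM in shEXOSC3, and at 778 against 668 FPKM and 210 against 165 FPKM in shNS. Neither reached a 2-fold difference in any table. SCARNA8 was at 62.4 against 23.5 FPKM on day 5 and 991 against 1125 FPKM on day 7 in shEXOSC3, and at 47.8 against 46.8 FPKM and 796 against 1108 FPKM in shNS. It passed the adjusted rule on day 5, at 1.34, on 8 against 3 fragments in shEXOSC3, a ratio of 2.65 with an interval of 0.636 to 15.5. On day 7, with 114 to 171 fragments, its adjusted log2 difference was 0.30.

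SCARNA9L was lower with doxycycline in all 4 tables, with and without the EXOSC3 hairpin. It was at 94.0 against 197 FPKM on day 5 and 73.2 against 180 FPKM on day 7 in shEXOSC3, and at 94.6 against 171 FPKM and 91.8 against 177 FPKM in shNS. The 4 libraries with doxycycline lay between 73.2 and 94.6 FPKM and the 4 without it between 171 and 197 FPKM. These ranges pool tables that can differ in scale, and the share of all genes separated this way was not counted. The authors' deposited p on days 5 and 7 was 0.162 and 0.132 in shEXOSC3 and 0.201 and 0.174 in shNS. Their test set 1 library against 1 library. The ratios were 0.477 (interval 0.408 to 0.557) and 0.408 (0.346 to 0.479) in shEXOSC3, and 0.554 (0.491 to 0.624) and 0.518 (0.441 to 0.608) in shNS, from 206 or more fragments in each library. Only the shEXOSC3 ratios passed the 2-fold rule, but the adjusted log2 differences were -0.21 and -0.34, so the lower level went with doxycycline in both lines. The limma mean of the 4 log2 ratios was -1.03 ± 0.081 (SE), with a Benjamini-Hochberg adjusted p of 0.418 over all genes. EIF1AX, the translation factor gene whose locus (chrX:20142636-20159966, hg19) holds the entry, was at 27.1 against 25.3 FPKM and 26.2 against 30.8 FPKM in shEXOSC3, and at 29.04 against 27.0 FPKM and 31.2 against 29.8 FPKM in shNS.

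SCARNA9, the C/D guide that SCARNA9L is named after, was described after its values were seen because reads of related copies can be shared. It was at 68.0 against 101 FPKM on day 5 and 69.5 against 109 FPKM on day 7 in shEXOSC3, and at 88.0 against 98.9 FPKM and 109 against 105 FPKM in shNS. The ratio in shEXOSC3 was 0.676 (interval 0.557 to 0.820) on day 5 and 0.637 (0.533 to 0.760) on day 7, and both intervals in shNS held 1. Its adjusted log2 differences, -0.39 and -0.69, did not reach 2-fold.

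SCARNA18 and SCARNA21, both H/ACA scaRNAs, passed 2-fold on day 7 in the same direction in both lines, which SCARNA9L and SCARNA9 did not. On day 7, 3.84% of all genes were higher in shEXOSC3 and 3.77% in shNS, and 3.4% and 3.09% were lower. Of the other short genes, 24.4% and 22.4% were higher and 15.1% and 13.9% lower. The share past 2-fold in both lines was not counted. The sequences of these scaRNAs follow. Capitals mark TGAG, the CAB box letters that hold H/ACA RNAs in Cajal bodies, and the ACA that ends 3 nt before the 3′ end; a match of letters is not a shown site.
SCARNA18: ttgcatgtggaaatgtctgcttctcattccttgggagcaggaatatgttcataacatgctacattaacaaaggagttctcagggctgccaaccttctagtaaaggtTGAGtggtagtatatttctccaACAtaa
SCARNA21: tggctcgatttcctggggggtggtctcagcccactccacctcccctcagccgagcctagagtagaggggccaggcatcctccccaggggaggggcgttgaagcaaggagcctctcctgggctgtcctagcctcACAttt
Both RNAs had the terminal ACA, which 3.56% of annotated transcripts under 300 nt had at that place. TGAG stood once in SCARNA18 and was not among the letters of SCARNA21, while 54.3% of those transcripts held it. SCARNA18, inside an intron of TMEM167A, was at 251 against 116 FPKM in shEXOSC3 and 265 against 103 FPKM in shNS on day 7, from 38 against 19 and 41 against 12 fragments. SCARNA21, inside an intron of CHD3, was at 126 against 254 FPKM in shEXOSC3 and 158 against 359 FPKM in shNS on day 7, from 21 against 46 and 27 against 46 fragments. The ratios were 2.17 and 2.56 for SCARNA18 and 0.495 and 0.440 for SCARNA21, and all 4 intervals left out 1. The pair was picked by these same day-7 ratios, so the intervals are not an independent check. SCARNA21 was described after its values were seen. On day 5, SCARNA18 was at 14.4 against 29.1 FPKM in shEXOSC3 (2 against 4 fragments) and 74.9 against 70.3 FPKM in shNS, or -1.05 on the adjusted log2 scale. SCARNA21 on day 5 was at 275 against 441 FPKM in shEXOSC3 and 330 against 328 FPKM in shNS. TMEM167A was at 128 against 111 FPKM in shEXOSC3 and 101 against 107 FPKM in shNS on day 7.

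The remaining scaRNAs that passed the adjusted rule rested on few fragments. SCARNA23 was the single member past it on both days, at 2.89 and 1.40, but its 8 libraries held 0 to 4 fragments each. It was at 16.0 against 0 FPKM and 14.6 against 6.75 FPKM in shEXOSC3, and at 15.1 against 5.99 FPKM and 14.3 against 19.1 FPKM in shNS. With groups at or under 3 fragments in shEXOSC3, the adjusted values show only that the rule was passed and do not measure a fold. A difference was not detectable at this depth. POLA1, which contains SCARNA23, was at 17.5 against 19.8 FPKM in shEXOSC3 and 21.5 against 19.7 FPKM in shNS on day 7.

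SCARNA20 was at 16.0 against 0 FPKM on day 5 and 132 against 74.2 FPKM on day 7 in shEXOSC3, and at 26.4 against 42.0 FPKM and 107 against 9.55 FPKM in shNS. Its adjusted log2 difference was 4.74 on day 5 and -2.54 on day 7, opposite in sign. The first rested on 2 against 0 fragments in shEXOSC3, and the second on 15 against 1 fragments in shNS, a ratio of 11.3 with an interval of 1.73 to 474. SCARNA15 was at 41.9 against 7.87 FPKM on day 5 and 0 against 6.71 FPKM on day 7 in shEXOSC3, and at 6.47 against 12.5 FPKM on day 5 and 0 in both day-7 libraries of shNS. SCARNA3 was at 22.7 against 11.4 FPKM and 25.9 against 19.1 FPKM in shEXOSC3, and at 13.3 against 25.5 FPKM and 10.2 against 0 FPKM in shNS. The adjusted log2 differences on days 5 and 7 were 3.13 and -2.95 for SCARNA15 and 1.82 and -3.06 for SCARNA3, with at most 6 fragments in any library.

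SCARNA14 was at 0 in both shEXOSC3 libraries of day 5 and at 12.3 against 11.3 FPKM on day 7, and in shNS at 9.48 against 5.02 FPKM and at 6.002 against 0 FPKM, with at most 3 fragments per library. SCARNA27, whose box class was not assigned, was at 0 in all day-5 libraries, and on day 7 at 56.9 against 52.5 FPKM in shEXOSC3 and 39.8 against 127 FPKM in shNS. The adjusted log2 difference of SCARNA27 on day 7, 1.77, came from the shNS libraries, with 5 against 12 fragments, while the shEXOSC3 libraries had 7 each. The members not given library by library (SCARNA1, SCARNA4, SCARNA6, SCARNA11, SCARNA17 and SCARNA22) had adjusted log2 differences between -0.37 and 0.79.

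Over all 30 measured members, calls fell in both directions. In shEXOSC3, 4 members were higher and 1 lower on day 5, where 2.95% and 2.3% of all genes were, and 5 were higher and 3 lower on day 7, where 3.84% and 3.4% were. In shNS, 1 member was higher and 0 lower on day 5, where 1.62% and 1.47% of all genes were, and 4 were higher and 3 lower on day 7, where 3.77% and 3.09% were. The adjusted rule called 5 higher and 1 lower on day 5, against 3.74% and 3.11% of all genes, and 5 higher and 4 lower on day 7, against 5.49% and 5.72%. On both days in 1 direction it called 1 higher and 0 lower, against 0.575% and 0.52% of all genes. In shEXOSC3 alone, 1 member, SCARNA23, was higher on both days and 1, SCARNA9L, was lower, against 0.315% and 0.276% of all genes.

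In the limma fit over both days, none (0) of the 30 members, and 0 of the 12694 genes, passed a Benjamini-Hochberg adjusted p of 0.05 in shEXOSC3, in shNS or in the difference between the lines. At an unadjusted limma p under 0.05, 2 members were higher and 2 lower in shEXOSC3, against 5.97% and 5.87% of all genes, and 1 was higher and 1 lower in the difference between the lines, against 2.26% and 1.84%. These shares are near those of all genes. The smallest p of a member for the difference was that of RNVU1-8, 0.0314 with an adjusted p of 0.827, at a log2 difference of 1.87 ± 0.54 (SE).

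For the adjusted difference, the members' shares were below those of other short RNAs in each direction on both days. They were above those of all genes except for the lower calls of day 5, where the 1 member is near the share of all genes. Among the 589 other genes under 300 nt with a mean of at least 1 FPKM, the adjusted rule called 23.6% higher and 16.5% lower on day 5 and 28.4% higher and 29.5% lower on day 7, against 16.7% and 3.33%, and 16.7% and 13.3%, of the members. The members' median adjusted log2 difference was 0.07 on day 5 and 0.13 on day 7, beside 0.00 for the other short genes on both days and -0.00 and -0.01 for all genes. The 96 SNORA genes, nucleolar H/ACA RNAs built like the H/ACA scaRNAs, had medians of 0.34 and 0.36, while the 14 H/ACA scaRNAs had 0.27 and -0.17. The C/D scaRNAs had medians of -0.21 and 0.03 and those with both boxes 0.14 and 0.13.

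**Figure D2:**
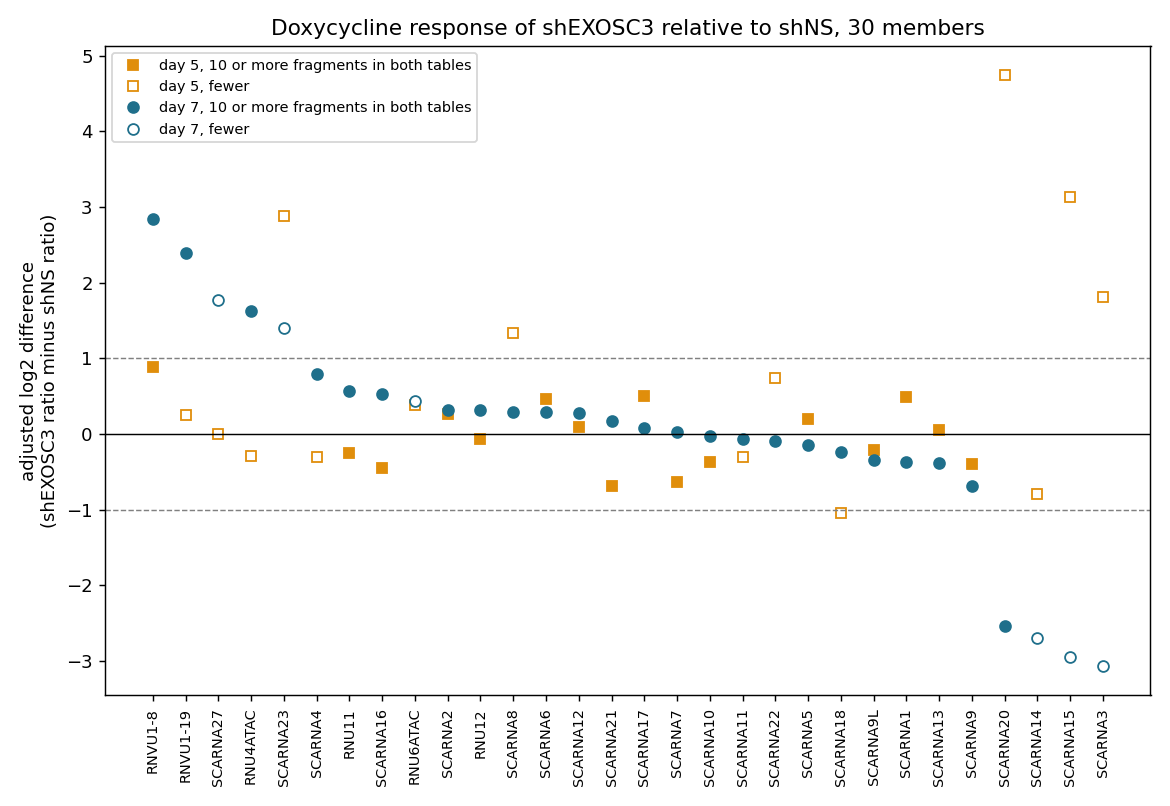
Adjusted log2 difference (shEXOSC3 ratio minus shNS ratio) of the 30 measured members on day 5 (squares) and day 7 (circles), ordered by day 7; filled symbols had at least 10 fragments in 1 library of both tables of that day, and dashed lines mark 2-fold. The filled symbols beyond 2-fold are RNVU1-8, RNVU1-19, RNU4ATAC and SCARNA20, all on day 7, with SCARNA20 filled through 15 against 1 fragments in shNS.

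The calls thinned out with depth. Of the 16 members with at least 10 fragments in 1 library of both day-5 tables, none (0) passed the adjusted rule in either direction on day 5, where 3.74% and 3.11% of all genes did. Of the 24 members at that depth on day 7, 3 were higher, the snRNAs RNU4ATAC, RNVU1-19 and RNVU1-8, and 1 was lower, SCARNA20, where 5.49% and 5.72% of all genes were called. The 1 lower call is near that share. This limit on depth was chosen after the data were seen. It can be met through the higher library of a pair alone, as by SCARNA20 in shNS on day 7, with 15 against 1 fragments. That call therefore rests on few fragments in 1 library. The snRNAs that passed on day 7 had 41 or more fragments in at least 1 library of each table, a number set by RNU4ATAC in shNS. The scaRNAs with more fragments than that all lay within 2-fold in the adjusted difference of day 7. So did the snRNAs RNU11 and RNU12, at 0.56 and 0.31, which also had more fragments than that.

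**Figure D3:**
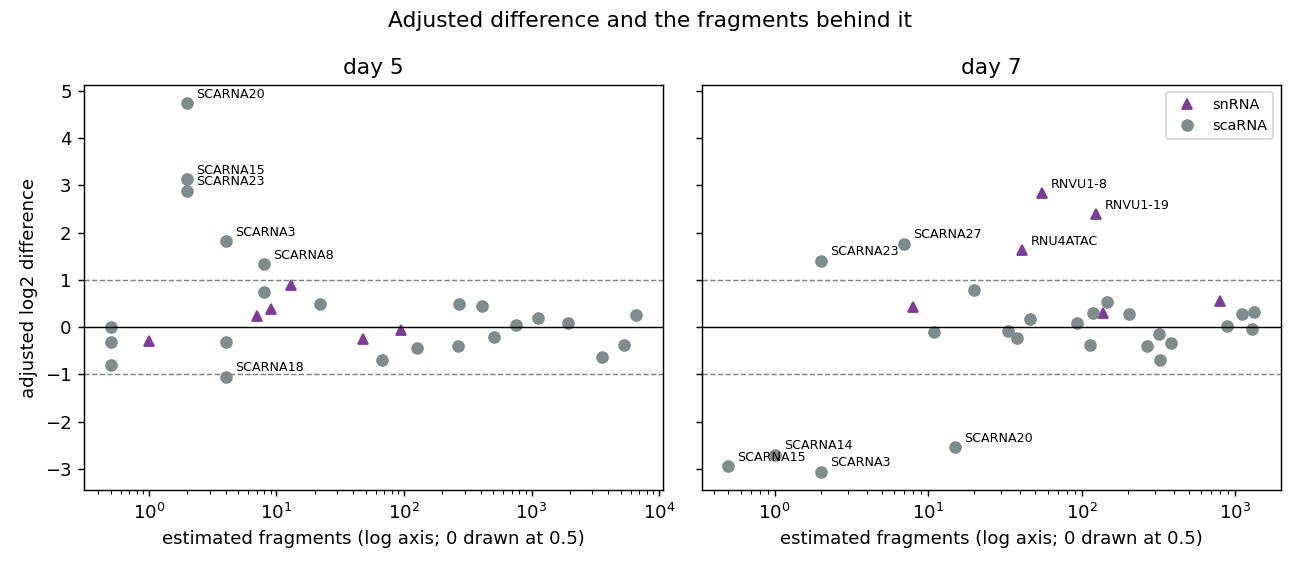
Adjusted log2 difference against estimated fragments (log axis), with day 5 on the left and day 7 on the right; a member's position on the horizontal axis is the larger count of each table's pair, taken in the lower of the 2 tables. On day 5 the values beyond 2-fold lie under 10 fragments, while on day 7 the snRNAs RNVU1-8, RNVU1-19 and RNU4ATAC lie beyond 2-fold at 41 or more. The snRNAs RNU11 and RNU12 lie within 2-fold on day 7, also above 41 fragments.

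The mix of short and long members differed between the days in every line and treatment. The 24 members of 102 to 187 nt, which include all the snRNAs, took 1.74% and 31.5% of the members' fragments on days 5 and 7 in shEXOSC3 with doxycycline and 2.11% and 21.5% without it. In shNS they took 2.67% and 21.6% with doxycycline and 3.10% and 22.2% without it. The 10 members of 266 to 421 nt, all scaRNAs, held the rest. On day 5, SCARNA10 and SCARNA2 ranked among the 3 highest members by FPKM in each library, while on day 7 RNU11 ranked first in each. The ratio of RNU11 to RNU12 FPKM within a library was 0.490 to 0.705 in the 4 day-5 libraries and 7.18 to 8.74 in the 4 day-7 libraries. The difference between the days was thus present without doxycycline and in shNS too. Day and any difference in library preparation cannot be told apart.

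Within the day-7 short members, RNU4ATAC alone took 6.97% of the fragments in shEXOSC3 with doxycycline and 2.87% without it, and 2.43% and 1.70% in shNS. Its FPKM was 2.00 times that of RNU12 in shEXOSC3 with doxycycline and 0.554 times without it, against 0.474 and 0.327 times in shNS.

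**Figure D4:**
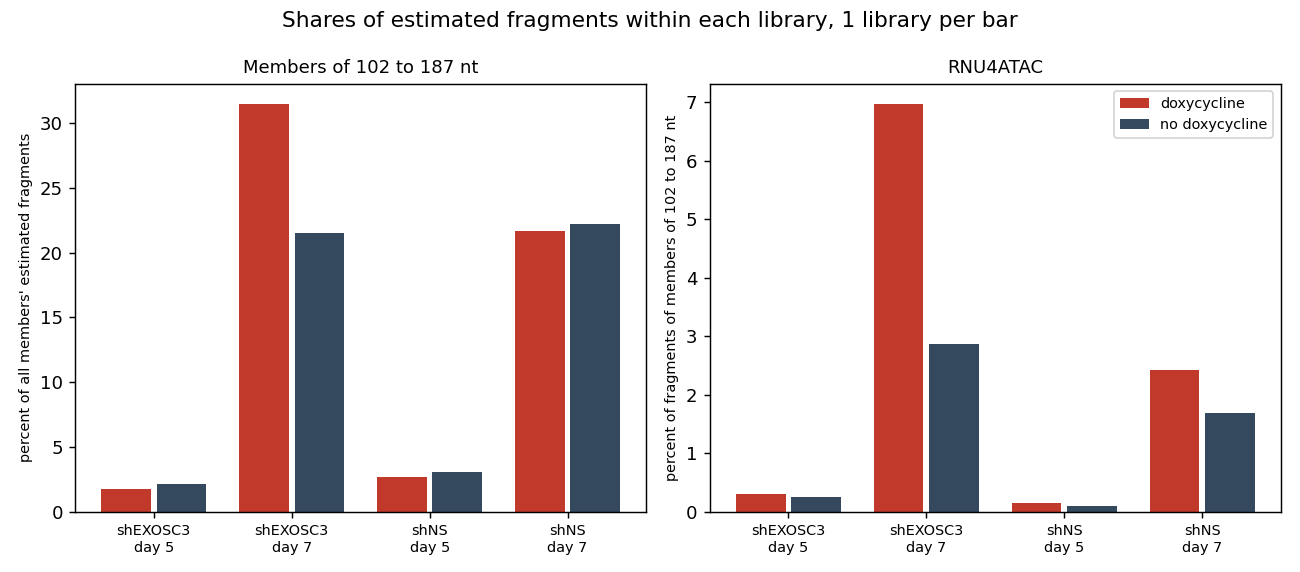
Share of the members' estimated fragments from members of 102 to 187 nt (left) and share of those from RNU4ATAC (right), in percent, 1 bar per library, with doxycycline in red left of no doxycycline in dark blue. Short members gave 1.74% to 3.10% on day 5 and 21.5% to 31.5% on day 7, and RNU4ATAC gave the largest share, 6.97%, in shEXOSC3 with doxycycline on day 7.

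Most scaRNAs lie inside longer genes. Of the 30 measured members, 24 shared their locus in the deposited tables with a longer gene, of which there were 23. By the GENCODE v29 annotation (GRCh38), 19 lie in an intron and 2 in an exon of that gene on the same strand, and 1, RNU4ATAC, lies in an intron of CLASP1 on the opposite strand; SCARNA9L and SCARNA27 could not be placed that way. CLASP1, a microtubule plus-end protein whose hg19 locus spans chr2:122095352-122407052, was at 20.2 against 17.1 FPKM in shEXOSC3 and 14.4 against 16.9 FPKM in shNS on day 7. Its adjusted log2 difference was 0.45, or 0.14 when summed over its transcripts, and that of RNU4ATAC was 1.63. Which strand was counted is not stated, so reads of overlapping genes cannot be told apart.

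Of the 23 longer genes at those loci, the adjusted rule called 0 higher and 1 lower on day 5, where 3.74% and 3.11% of all genes were called. On day 7 it called 1 higher and 1 lower, where 5.49% and 5.72% were. These counts are near those shares. The genes that passed were CHD3, which contains SCARNA21, at -2.56 and -1.96 on days 5 and 7, and SNHG10, which contains SCARNA13, at 1.23 on day 7. The CHD3 entry was at most 5.32 FPKM in any library, and summed over its transcripts CHD3 was at 0.08 and -0.15. SNHG10 was at 8.72 against 3.20 FPKM in shEXOSC3 and 3.72 against 3.79 FPKM in shNS on day 7, and its sum was at 1.36. RNU11 (chr1:28975112-28975246), RNU12 (chr22:43011251-43011399), RNU6ATAC (chr9:137029562-137029686), RNVU1-19 (chr1:149514090-149514256) and RNVU1-8 (chr1:146556163-146556303) had loci of their own in the deposited tables (hg19). By the GENCODE v29 annotation, however, RNU12 lies in an exon of Z93241.1 and SCARNA2 in an exon of AL356488.2. Both are long noncoding RNA genes on the same strand.

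The longer genes at the loci of the scaRNAs given above by library stayed within 2-fold apart from those. ATG16L1, KPNA4, HAUS6, NCAPD2, PHB2 and USP32, which contain SCARNA5, SCARNA7, SCARNA8, SCARNA10, SCARNA12 and SCARNA20 in that order, had adjusted log2 differences between -0.81 and 0.13. SEC14L1 (SCARNA16) was at -0.30 and -0.83 on days 5 and 7, or 0.34 and -0.31 when summed over its transcripts. By the annotation, SCARNA16 lies in an intron of SEC14L1, as counted above, and also in an exon of SNHG20 on the same strand. The values of SNHG20 are not given here. TIPIN (SCARNA14) was at -0.41 and -0.99, or -0.24 and -0.50 when summed. TXNDC5, at -0.32 and -0.39, is 1 of 7 other genes at the locus of SCARNA27 and was not shown to contain it. COP1 (SCARNA3) was at 0.45 and -0.33, or -0.20 and 0.03 when summed. SNHG21 (SCARNA15) was at 0.38 and 0.99, or 0.95 and 0.22 when summed, where SCARNA15 was at 3.13 and -2.95.

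Genes for the proteins that build, modify and transport these RNAs were followed in 11 lists. Of their 98 measured genes, the adjusted rule called 2 higher and 1 lower on day 5, where 3.74% and 3.11% of all genes were called, and 5 higher and 2 lower on day 7, where 5.49% and 5.72% were. None (0) was called on both days in 1 direction. With FPKM summed over the transcripts of each gene, 1 of them, LSM10, was higher on day 5 and 0 were lower, and 0 were called in either direction on day 7. The calls on day 7, GEMIN2, GEMIN5, INTS14, WRAP53, ZNF143, SNRNP35 and ZNHIT3, thus came from single transcript entries. The median adjusted log2 difference of the 98 genes was -0.12 and -0.04 on days 5 and 7, and -0.10 and -0.06 when summed.

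The genes named next had the highest and lowest mean of both days in their list by the most abundant transcript entry, and the adjusted log2 differences on days 5 and 7 summed over transcripts stand beside them. The 8 Sm proteins, which form the ring on AATTTNT, had 0 calls in any comparison; SNRPB was highest at 0.07 and SNRPE lowest at -0.31, and the sums of SNRPE were 0.39 and 0.29, opposite in sign. Of the 10 LSm proteins, LSM10, part of the U7 ring, was highest at 0.97 from 1.38 and 0.56, the same as its sums. LSM5, of the U6 ring, was lowest at -0.79, with sums of -0.09 and 0.08.

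In the SMN complex, which loads Sm rings, GEMIN5, the subunit that binds snRNA, was highest at 1.73, with sums of 0.12 and 0.01, and GEMIN8 lowest at -0.58, with sums of -0.06 and 0.28. Among C/D RNP proteins, ZNHIT3, an assembly factor, was lowest at -1.25, with sums of -0.21 and -0.11, and SNU13 was highest at 0.14. Of the snRNP proteins, SNRNP35, a protein of the U11/U12 particle, was lowest at -1.49, with sums of -0.06 and -0.22. RNPC3, which bridges U11 and U12, was highest at 0.62, with sums of 0.88 and 0.35.

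For snRNA transcription, ZNF143, an activator of snRNA genes, was highest at 0.51, but its sums were -0.40 and -0.08. SNAPC1, of the complex that binds their promoters, was lowest at -0.48, with sums of -0.31 and -0.64. In the Integrator, which cleaves the 3′ ends of nascent snRNAs, INTS14 was highest at 1.16, with sums of -0.81 and 0.41, and INTS2 lowest at -0.33. Of the genes for export, capping and 3′ end processing, LARP7, which binds U6 and 7SK, was highest at 0.14 and USB1, which trims U6, lowest at -0.36. The sums of USB1 were 0.23 and 0.22, opposite in sign.

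WRAP53, which brings scaRNAs to Cajal bodies, was highest of the Cajal body proteins at 0.30, with sums of -0.09 and 0.23, and NOLC1 lowest at -0.27, with sums of 0.14 and -0.12. Of the H/ACA proteins, NAF1, an assembly factor, was highest at 0.23, with sums of -0.07 and 0.26, and GAR1, a core protein, lowest at -0.29, with sums of -0.45 and -0.57. SLBP, the histone mRNA partner of the U7 particle, was at -0.19, with sums of -0.40 and 0.02.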

How the data were processed

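ScriptSeq v2 libraries were made from Trizol-extracted total RNA of H1 cells after rRNA removal, with spike-in RNA, per the labels' protocols; 0 spike-in entries were among those used here. CASAVA 1.8, TopHat and Cufflinks were used with hg19 (GRCh37), per the submitters' processing notes. Annotation, normalization and counting strand were not given in the sources used. The 4 deposited tables, 1 per line and day, give FPKM for 49235 transcript entries and the authors' p-value and q-value for 1 library against 1 library, in the layout of Cuffdiff, per the file headers.

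Symbols were taken from RefSeq accessions for 48147 entries, in a table of a later assembly used for names and lengths only. A gene was represented by its entry of highest mean FPKM, after 164 failed or too deep entries were dropped; genes with a mean below 1 FPKM were left out, and a pseudocount of 1 FPKM was used. Named genes were EXOSC3, every member past the minimum, with values in each library for the snRNAs, for scaRNAs past the adjusted 2-fold rule on either day and for the 3 highest of each box class, the containing genes, and the highest and lowest gene of each pathway list. SCARNA9 and SCARNA21 met none of these rules and were given by library after their values were seen. The members, lists and rules were chosen with earlier results of these data known. The loci of the tables span whole overlapping genes, so other short RNAs were chosen by RefSeq length under 300 nt.

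Fragments were estimated from FPKM with an effective length from a normal distribution of fragment lengths (mean 200, SD 80, shortest 16 nt). The mean and SD were fixed settings, only the shortest length was fitted to the values, and the authors did not state the distribution. With this distribution, 85.7% to 90.6% of low values per library came within 0.02 of whole numbers, as did 100 of 102 member values under 50 fragments within 0.1. The scale of each library was chosen to raise the first share, and member lengths were changed where needed to meet the second. Neither share is thus an independent check of the counts. RNU12, RNU6ATAC, RNVU1-19 and SCARNA13 needed a length 1 to 3 nt away from the current RefSeq length. The steps were tested on simulated data. Python 3.11.15 was used with pandas 2.3.3, numpy 2.4.6, SciPy 1.17.1 and matplotlib 3.10.9. limma 3.58.1 in R 4.3.3 was fitted to the 4 log2 ratios of every gene, with 1 mean per line and 2 residual degrees of freedom. Alternatives were another pseudocount, minimum, choice of entries and centring.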

Additional observations from a re-analysis of the deposited data

Results flagged for a closer look

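RNVU1-8, a U1 variant, was picked out because its log2 ratio of doxycycline over no doxycycline was above 0 on both days in shEXOSC3, at 0.36 on day 5 and 1.51 on day 7, and below 0 on both days in shNS, at -0.53 on day 5 and -1.33 on day 7. With the 2 days of a line taken as its replicates, the difference between the lines was 1.87 ± 0.54 (SE) on the log2 scale by limma, with a Benjamini-Hochberg adjusted p of 0.827 over all genes. No other of the 30 measured members had 1 line above 0 and the other line below 0 on both days. The share of all genes with such signs was not counted, so whether the pattern is unusual was not tested. RNVU1-8 was picked by the same ratios that gave the limma difference, so that difference is not an independent check of the pattern. The counting intervals of the day-5 ratios held 1 in both lines, 0.523 to 3.29 in shEXOSC3 and 0.409 to 1.17 in shNS, whereas those of day 7 did not. Near-identical U1 copies can share its reads, and their part in the result was not tested.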

How the results depend on the processing

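Each count of members past 2-fold and each median was recomputed under 9 alternatives of pseudocount, minimum, choice of entries and centring, and under 2 limits on estimated fragments that were chosen after the data were seen. A count was taken as unmoved within 1.5 times the main count, and a median within 0.1 on the log2 scale. No called value of a single member changed sign under any of them. Summing entries and keeping failed entries could not change the members, since each has 1 entry and none (0) failed, and the medians used for centring are near 0, so these settings say nothing about stability. With a pseudocount of 10 FPKM, members lower in shEXOSC3 were 0 on day 5 and 1 on day 7, members higher in shNS on day 5 were 0, members lower in the adjusted difference were 0 on day 5 and 1 on day 7, and members higher on both days were 0. With a pseudocount of 0.1 FPKM, 3 members were lower in shEXOSC3 on day 5. A minimum of 10 FPKM, and a status of OK in all 4 tables, each left 2 members lower in the adjusted difference on day 7. With no minimum, which adds the 4 members at 0, the median was -0.016 in shNS and 0.013 in the adjusted difference on day 7.

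With at least 10 fragments in every table, which keeps 16 members and drops RNU4ATAC and RNVU1-19 for their day-5 depth, the counts of members higher were 0 in shEXOSC3 on day 5, 1 on day 7, 0 in shNS on both days, and 0 on day 5, 1 on day 7 and 0 on both days in the adjusted difference. Members lower in the adjusted difference were then 0 on each day, and the shEXOSC3 median on day 5 was -0.123. With at least 10 fragments in both tables of the day compared, members higher were 0 in both lines and in the adjusted difference on day 5, 2 in shNS and 3 in the adjusted difference on day 7, and members lower in the adjusted difference were 0 on day 5 and 1 on day 7. By construction these settings count fewer members or shrink the ratios of low values. Each ratio is itself a pair of libraries of 1 line and day. With the 4 ratios as pairs and the 2 days of a line as its replicates, limma called 0 members higher and 0 lower in the adjusted difference of both days, where the size rule called 1 and 0; this fit was added after the data were seen. No library was left out, since each group has 1. Depth limits the short members most: on day 5 RNU4ATAC had at most 2 fragments in any library, and differences in such members were not detectable.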
